A study of Homo sapiens with 2 samples.

Results

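The transferrin receptor and other genes of cellular iron handling, 10 in number, were described in the lung adenocarcinoma line NCI-H2030, a line of human cells profiled by RNA-seq. The genes were chosen by symbol, with earlier results of these data known. All 10 of them had 1 annotated row in each deposited table, out of 55773 annotated gene symbols in all, and 9 of the 10 passed a filter of a mean of at least 1 TPM (a level per transcript length, scaled to the library) that 13669 genes passed. Per the labels, 1 library came from cells treated with miR-494-3p AS and 1 from cells treated with SC, and no other agent is named for either. Neither abbreviation is spelled out in the labels, and the groups are called AS and SC here. There was 1 library in each group, so no test, standard error or p-value was computed, and every difference below is a difference between these 2 libraries. The labels do not describe how many cultures went into a library.

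A cell takes up iron by binding transferrin at the transferrin receptor, carries it into endosomes, reduces it and moves it into the cytosol, where it is used, stored in ferritin or exported. Iron-regulatory proteins tie these steps together after transcription. When iron is scarce they bind hairpins called iron-responsive elements, which protects the transferrin receptor mRNA from decay through elements in its 3′ UTR and blocks translation of ferritin and ferroportin mRNAs through elements in the 5′ UTR. Proliferating cells and many tumours carry high levels of the transferrin receptor.

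The hairpins are shown because those of the 3′ UTR are described as acting on mRNA stability and those of the 5′ UTR on translation. A hairpin was counted where a C was followed by 5 bases, by the loop CAGTGN or CAGAGN, and by 5 bases able to pair with the first 5 in all 5 places, with G-U pairs allowed. Only the transcript strand was read, in 1 representative transcript per gene of GENCODE release 29 (GRCh38). TFRC held 5 such hairpins in its 3′ UTR of 2658 bases, with loops at UTR positions 897, 947, 1351, 1416 and 1463. FTH1, FTL and SLC40A1 each held 1 in the 5′ UTR. Each is printed 5′ to 3′ on the transcript strand with the loop in capitals:
TFRC hairpin 1, chr3:196051028-196051057, minus strand: atttatcagtgaCAGAGTtcactataaatg
TFRC hairpin 2, chr3:196050978-196051007, minus strand: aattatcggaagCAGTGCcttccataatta
TFRC hairpin 3, chr3:196050574-196050603, minus strand: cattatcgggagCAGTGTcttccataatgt
TFRC hairpin 4, chr3:196050509-196050538, minus strand: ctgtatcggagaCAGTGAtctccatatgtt
TFRC hairpin 5, chr3:196050462-196050491, minus strand: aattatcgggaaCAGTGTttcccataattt
FTH1, chr11:61967573-61967602, minus strand: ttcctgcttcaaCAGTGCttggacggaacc
FTL, chr19:48965335-48965364, plus strand: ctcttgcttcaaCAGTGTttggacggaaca
SLC40A1, chr2:189580660-189580689, minus strand: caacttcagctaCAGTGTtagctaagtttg

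Of 19513 coding genes, 44 (0.225%) held such a hairpin in the 5′ UTR and 186 (0.953%) in the 3′ UTR, and TFRC was the 1 gene with 5 or more in the 3′ UTR. STEAP3 also held 1 match in its 3′ UTR, of the looser CAGAGN form. TFRC hairpin 1 is of this looser form too, so the TFRC count of 5 includes it. No match was found in the representative transcripts of SLC11A2, ACO1, IREB2, NCOA4 and FBXL5, which says only that these letters are not in those windows. Other transcripts of these genes were not searched, so an element in another transcript would be missed. A match is a description of sequence and not a measured binding site.

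The treatment names miR-494-3p, so its seed matches are shown as well. A match of the form ATGTTTC pairs with bases 2 to 8 of the microRNA. One of the form TGTTTCA pairs with bases 2 to 7 and ends in an A, and both SLC11A2 matches are of this form. The mature microRNA, from RefSeq (GRCh38.p14, chr14:101029681-101029702, plus strand), is printed first with its seed, bases 2 to 8, in capitals, and below it stand the 7-base matches ATGTTTC and TGTTTCA found in the 3′ UTRs of the iron genes, in capitals on the transcript strand:
hsa-miR-494-3p: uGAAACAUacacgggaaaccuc
FTH1, UTR position 380, chr11:61964333-61964355, minus strand: tgagttaaATGTTTCcaatggtt
FBXL5, UTR position 1158, chr4:15604551-15604573, minus strand: ttggtgccATGTTTCcaataaaa
SLC11A2, UTR position 136, chr12:50988175-50988197, minus strand: aaagacttTGTTTCAtgtgtatt
SLC11A2, UTR position 1532, chr12:50986779-50986801, minus strand: cactactgTGTTTCActgaccat

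The other 7 iron genes, TFRC among them, had no 7-base match in the 3′ UTR of the representative transcript. Of 18770 coding genes with a 3′ UTR, 4457 (23.7%) held at least 1 match. The mature microRNA itself is not measured by these libraries.

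In the deposited TPM, 5 of the 9 measured iron genes reached 2-fold higher levels in AS than in SC and none was 2-fold lower. Of all measured genes, 16.5% were 2-fold higher and 2.17% were 2-fold lower. The iron genes and the lists below were chosen with earlier results of these data known. Shares and medians of all genes therefore give scale only and are no test of a set. The ratio was log2((AS + 1)/(SC + 1)), which understates the difference of genes of low level. The 5 genes were TFRC, NCOA4, SLC11A2, FBXL5 and IREB2, and ACO1 was higher in AS but within 2-fold. The median log2 ratio of the 9 genes was 1.27, against 0.28 for all measured genes. In the deposited coverage, the mean number of reads over each base of a gene, 1 of the 9 genes, TFRC, was 2-fold higher and none was 2-fold lower, where 15.2% of all measured genes were 2-fold higher and 2.96% lower. The median log2 ratio of the 9 genes in coverage, with 0.1 added before the ratio, was 0.58, against 0.20 for all measured genes. The number of iron genes past 2-fold therefore differed between the deposited columns, and both are given for each gene below. In loci assembled from the reads, 1 of the 9 genes was 2-fold higher (NCOA4) and 1 was 2-fold lower (FBXL5), against 16.1% and 3.02% of the genes that could be compared there. After centring on the median of all measured genes, 4 of the 9 were 2-fold higher and none 2-fold lower in TPM, against 9.17% and 5.09% of all measured genes. In centred coverage none was 2-fold higher and 1 was 2-fold lower (STEAP3), against 9.33% and 5.42%.

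**Figure D1:**
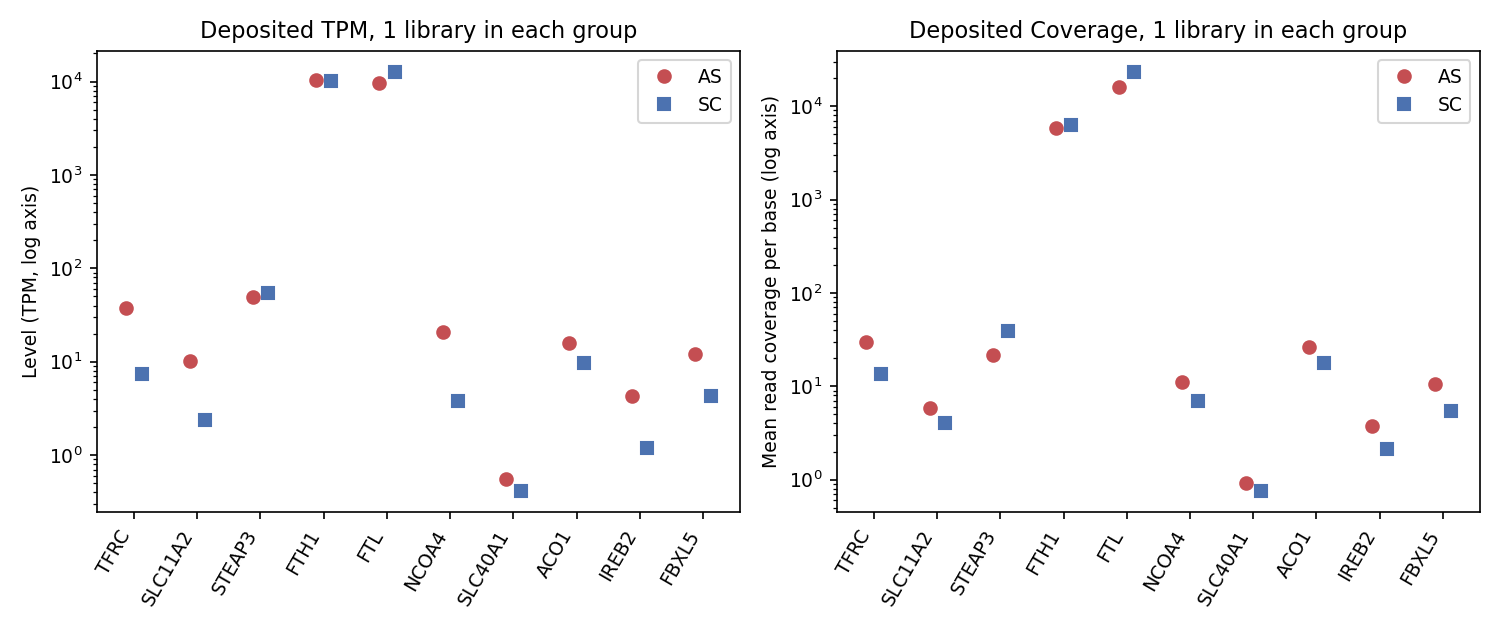
Level of each iron gene in the AS and SC libraries (1 library each), as deposited TPM on the left and deposited mean coverage per base on the right, both on log axes, in the order uptake, storage, export and regulation. FTH1 and FTL lie far above the other 8 genes in both libraries, at 10353 and 9710 TPM in AS and 10062 and 12747 TPM in SC, and SLC40A1 is the lowest.

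Among the genes of uptake, TFRC, which encodes the transferrin receptor (ENSG00000072274, chromosome 3, 195754054 to 195809060, minus strand, GRCh37 as in the tables), was at 37.7 TPM in AS and 7.46 TPM in SC, a log2 ratio of 2.19. In coverage it stood at 29.6 reads per base in AS and 13.7 reads per base in SC, 2.17-fold higher and a log2 ratio of 1.11. TFRC was thus higher in AS in both columns, and its TPM fold of 5.05 was more than its coverage fold. Of all measured genes, 98.7% had a smaller log2 ratio than TFRC in TPM and 88.3% had a smaller one in coverage. By TPM, TFRC was at rank 3542 of the annotated genes in AS and at rank 7172 in SC.

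SLC11A2 encodes DMT1, which moves ferrous iron out of endosomes and across the apical gut membrane. It stood at 10.1 TPM in AS and 2.40 TPM in SC, a log2 ratio of 1.71, and at a coverage of 5.88 in AS and 4.07 in SC, a log2 ratio of 0.52. The gene was higher in AS in both columns but past 2-fold in TPM only. STEAP3, the endosomal reductase that turns ferric into ferrous iron before DMT1 carries it, was at 49.0 TPM in AS and 54.1 TPM in SC, a log2 ratio of -0.14. Its coverage was 21.7 in AS and 39.0 in SC, a log2 ratio of -0.84, and 4.75% of measured genes had a smaller ratio in coverage. In these 2 columns the endosomal reductase was therefore on the other side of 0 from the receptor and the transporter of the same route. In the assembled loci described below, STEAP3 (-0.41) and SLC11A2 (-0.18) were both below 0.

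Ferritin, the hollow protein shell that stores iron, is built from a heavy chain with ferroxidase activity, FTH1, and a light chain, FTL. FTH1 was at 10353 TPM in AS and 10062 TPM in SC, a log2 ratio of 0.04, and at a coverage of 5833 in AS and 6278 in SC, a log2 ratio of -0.11. The heavy chain differed little between the libraries, and the sign of its ratio was not the same in the 2 columns. FTL was at 9710 TPM in AS and 12747 TPM in SC, a log2 ratio of -0.39, and at a coverage of 16173 in AS and 23368 in SC, a log2 ratio of -0.53. The light chain was lower in AS in both columns and within 2-fold.

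The chains together took 2.07% of the annotated TPM in AS and 2.34% in SC. By TPM, FTH1 was at rank 5 in AS and rank 9 in SC, and FTL at rank 7 in AS and rank 3 in SC. The level of FTH1 over that of FTL in TPM was 1.07 in AS and 0.789 in SC, so the order of the chains differed in TPM. In coverage that quotient was 0.361 in AS and 0.269 in SC, with FTL above FTH1 in both libraries. The level of FTL over that of TFRC was 258 in AS and 1708 in SC in TPM. In coverage, which is also per base, that quotient was 546 in AS and 1710 in SC. Ferritin genes have many processed pseudogenes, and reads that fit several copies may be divided among them. The 25 FTH1 pseudogene rows summed to 96.0 TPM in AS and 110 TPM in SC, which is 0.927% of the FTH1 level in AS and 1.09% in SC. The 16 FTL pseudogene rows summed to 24.6 TPM in AS and 24.1 TPM in SC, under 1% of the FTL level in each.

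NCOA4 is the cargo receptor that delivers ferritin to autophagosomes, which releases its iron. It was at 20.6 TPM in AS and 3.76 TPM in SC, a log2 ratio of 2.18 that was nearly as high as that of TFRC. Its coverage was 11.2 in AS and 6.90 in SC, a log2 ratio of 0.69, so that the gene was past 2-fold in TPM and not in coverage. SLC40A1 encodes ferroportin, the one known exporter of iron from cells. It was the lowest of the 10 genes and did not pass the filter, at 0.556 TPM in AS and 0.409 TPM in SC, with a coverage of 0.926 in AS and 0.751 in SC.

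The genes that sense iron were higher in AS in both columns. ACO1 encodes IRP1, a cytosolic aconitase that binds the hairpins once it has lost its iron-sulphur cluster. It was at 15.9 TPM in AS and 9.67 TPM in SC, a log2 ratio of 0.67, and at a coverage of 26.3 in AS and 17.6 in SC, a log2 ratio of 0.58. IREB2, which encodes IRP2, the hairpin-binding protein that is degraded when iron is plentiful, was at 4.29 TPM in AS and 1.19 TPM in SC, a log2 ratio of 1.27. Its coverage was 3.78 in AS and 2.14 in SC, a log2 ratio of 0.79. FBXL5, the iron-sensing subunit of the ubiquitin ligase that marks IRP2 for degradation, was at 12.1 TPM in AS and 4.30 TPM in SC, a log2 ratio of 1.31. Its coverage was 10.6 in AS and 5.39 in SC, a log2 ratio of 0.96, just under 2-fold. IRP2 and the ligase subunit that acts on it were both past 2-fold in TPM, and neither was in coverage. ACO1 stood above IREB2 in both libraries, by 3.71-fold in AS and 8.13-fold in SC in TPM and by 6.96-fold in AS and 8.20-fold in SC in coverage.

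**Figure D2:**
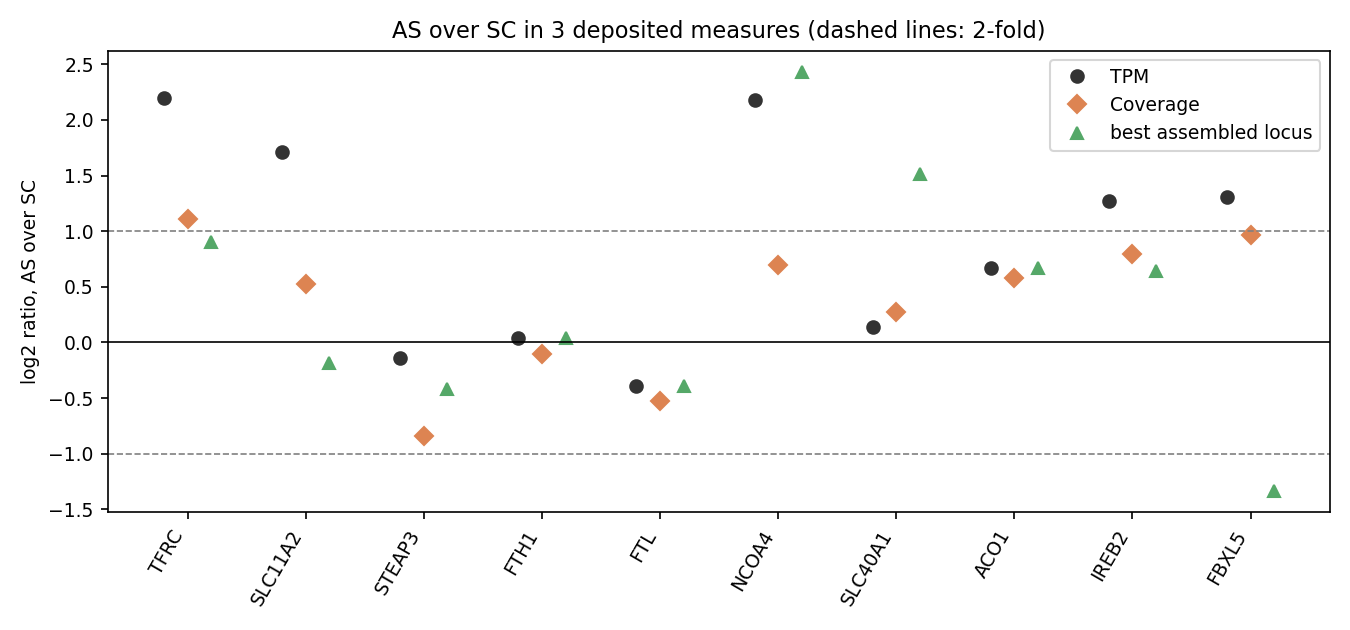
log2 ratio of AS over SC for each iron gene in deposited TPM (circles), deposited coverage (diamonds) and the TPM of the best overlapping assembled locus (triangles), with dashed lines at 2-fold. TFRC lies at 2.19, 1.11 and 0.90, FTL and STEAP3 lie below 0 in all 3 measures, and the 3 measures of NCOA4, SLC11A2 and FBXL5 lie far apart.

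For ACO1, FTH1 and FTL the measures lay close together, and for TFRC, NCOA4, SLC11A2 and FBXL5 they did not. The deposited coverage over the deposited FPKM (fragments per kilobase, scaled to the library) equalled a constant of the library, 3.54 in AS and 3.62 in SC, within 1% in 51.6% of the annotated symbols above 0 in AS and in 53.1% in SC. TFRC lay at 1.67 in AS and 3.62 in SC on this quotient and NCOA4 at 1.16 in AS and 3.62 in SC. Both genes thus stood at the constant, within 1%, in SC and below it in AS. Of the 13669 measured genes, 6.60% stood at the constant in SC and away from it, in either direction, in AS. Their median log2 ratio was 1.06 in TPM and 0.84 in coverage. The 24.5% of genes at the constant in both libraries had medians of 0.28 and 0.22. ACO1 and FTL stood at the constant in both.

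The tables also list loci assembled from the reads without a gene name. Over TFRC there was 1 assembled locus in AS, from the 5′ end of the gene row to 32.9 kb, at 37.7 TPM. In SC there were 2, one of 5.88 kb at 1.83 TPM and, nearer to the 3′ end, one of 18.3 kb at 19.7 TPM that ended where the AS locus ended. For TFRC the largest locus gave a log2 ratio of 0.90, and the SC level of 7.46 TPM in the gene row lay between the levels of its 2 pieces. Over NCOA4 there was 1 locus at 20.6 TPM in AS, and in SC there were 3, at 3.00, 1.20 and 13.7 TPM from the 5′ to the 3′ end. The NCOA4 ratio of 2.43 in the best overlapping locus rests on the first of those pieces, and the SC piece at the 3′ end was the highest. IREB2 had 1 locus at 4.28 TPM in AS and 5 in SC of 0.545 to 2.67 TPM, with a log2 ratio of 0.64 for the best overlapping one. The coverage of the IREB2 loci was low, at 4.66 in AS and from 1 to 4.83 in SC.

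FBXL5 had 2 assembled loci in each library that did not cover the same stretches. The locus at its 5′ end was at 55.5 TPM over 14.1 kb in AS and at 26.7 TPM over 42.9 kb in SC, and the one at its 3′ end at 9.95 TPM over 50.9 kb in AS and 8.13 TPM over 21.9 kb in SC. The best overlapping locus was the 3′ one in AS and the 5′ one in SC, so its log2 ratio of -1.34 sets different parts of the gene side by side. SLC11A2 had 1 locus in each library, at 11.4 TPM in AS and 13.1 TPM in SC, a log2 ratio of -0.18, although the coverage of that locus was 8.43 in AS and 1.31 in SC. The direction of SLC11A2 was therefore not the same in all deposited measures. ACO1 and FTL were each 1 locus in both libraries with the same TPM as their gene rows. STEAP3 and SLC40A1 also had 1 locus in each library. FTH1 went the other way from TFRC, with 2 loci in AS, at 10348 and 1.01 TPM, and 1 in SC at 10062 TPM.

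**Figure D3:**
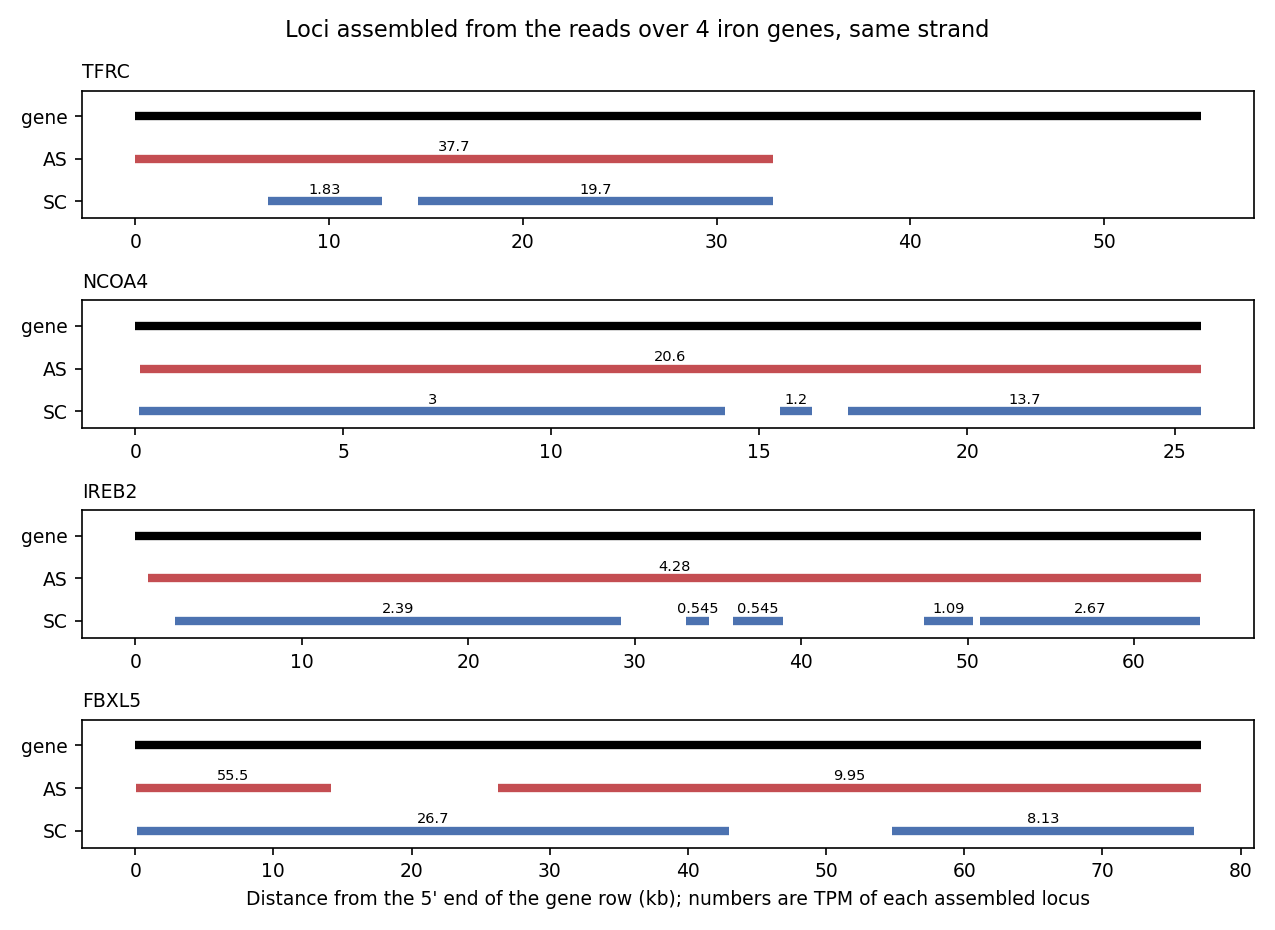
Stretches of TFRC, NCOA4, IREB2 and FBXL5 covered by loci assembled from the reads on the gene's strand, in AS above SC, by distance from the 5′ end of the gene row in kb; the black bar is the gene row and the numbers are TPM of each locus. TFRC, NCOA4 and IREB2 are 1 piece in AS and 2, 3 and 5 pieces in SC. FBXL5 is 2 pieces in each library, and FTH1, which is not drawn, is 2 pieces in AS and 1 in SC.

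The ratios of the iron genes were higher in transcripts of low GC content than in those of high GC content, as were those of genes in general. IREB2 (38.3% GC), FBXL5 (40.5%), TFRC (41.5%) and SLC11A2 (43.0%) are of low GC content, and FTL (56.3%) and STEAP3 (56.9%) of high GC content. Coding genes within 1 percentage point of TFRC, 792 in number, had a median log2 ratio of 0.88 in TPM and 0.84 in coverage, against 2.19 and 1.11 for TFRC. In coverage FBXL5 stood at 0.96 where genes of like GC content had a median of 0.88, NCOA4 at 0.69 against 0.56, ACO1 at 0.58 against 0.62 and IREB2 at 0.79 against 0.90. In TPM, FBXL5 stood at 1.31 against 0.89, NCOA4 at 2.18 against 0.63, ACO1 at 0.67 against 0.70 and IREB2 at 1.27 against 0.91. Near the median of genes of like GC content in coverage, 3 of these 4 genes thus lay above it in TPM and ACO1 did not. SLC11A2 lay below its median in coverage, at 0.52 against 0.79, and above it in TPM, at 1.71 against 0.82. FTH1 (-0.11 against 0.32), FTL (-0.53 against -0.14) and STEAP3 (-0.84 against -0.14) lay below theirs in coverage, and in TPM they stood at 0.04 against 0.39, -0.39 against 0.00 and -0.14 against 0.00. The part of GC content in these differences was not tested.

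**Figure D4:**
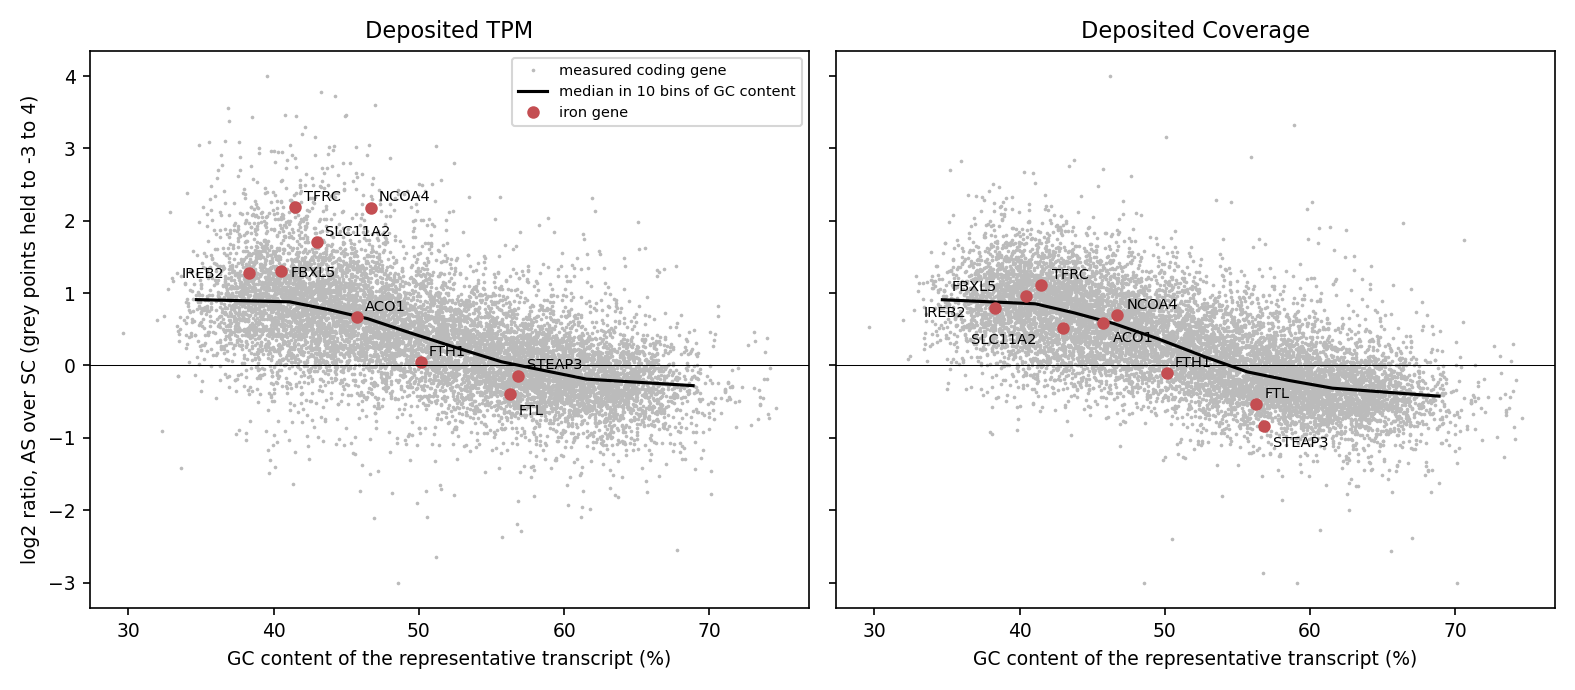
log2 ratio of AS over SC against the GC content of the representative transcript, in deposited TPM on the left and coverage on the right, for measured coding genes (grey), the median of each of 10 bins of GC content (line) and the 9 measured iron genes (red, named). The line runs from 0.91 in the bin of lowest GC content to -0.28 in the highest in TPM; TFRC, NCOA4 and SLC11A2 lie well above it in TPM and closer to it in coverage, and STEAP3 lies farther below it in coverage (-0.84) than in TPM (-0.14).

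Across 106 other genes of iron handling in 8 lists, 87 were measured, of which 10 were at least 2-fold higher in AS in TPM and none was 2-fold lower. In coverage 8 were higher and none was lower. Their median log2 ratio was 0.26 in TPM and 0.07 in coverage, near the 0.28 and 0.20 of all measured genes, and the share past 2-fold was below the background of 16.5% and 15.2%.

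The genes that carry the transferrin receptor through endocytosis and recycling held 2 of 7 measured members past 2-fold in both columns. Of all measured genes, 16.5% were 2-fold higher in TPM and 15.2% in coverage. The median log2 ratio of the list was 0.67 in TPM and 0.54 in coverage. CLTC, the clathrin heavy chain, was at 42.8 TPM in AS and 9.93 TPM in SC (log2 ratio 2.0 in TPM and 1.25 in coverage). PICALM, a clathrin adaptor that helps the receptor enter the cell, was at 18.7 TPM in AS and 4.63 TPM in SC (1.80 and 1.51). VPS35, a subunit of the retromer, was at 23.3 TPM in AS and 12.6 TPM in SC (0.84 and 0.74).

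Of 10 measured genes of other uptake, export and systemic control, 1 was past 2-fold in both columns, against 16.5% of all measured genes in TPM and 15.2% in coverage. This was SLC39A8, the metal importer ZIP8, at 13.8 TPM in AS and 3.83 TPM in SC (log2 ratio 1.61 in TPM and 1.57 in coverage). SLC39A14, the importer ZIP14, was at 35.7 TPM in AS and 20.3 TPM in SC (0.78 and 0.65), and SLC22A17, a receptor for the siderophore carrier lipocalin, at 10.8 TPM in AS and 18.6 TPM in SC (-0.73 and -0.78). Among iron chaperones and genes of ferritin turnover, 4 of 12 measured members were past 2-fold in TPM and 2 in coverage. Of all measured genes, 16.5% were 2-fold higher in TPM and 15.2% in coverage. After centring on the median of all measured genes, 0 of the 12 were 2-fold higher in TPM and 1 in coverage. The median of the list was 0.84 in TPM and 0.56 in coverage. ATG5, of the autophagy conjugation system, was at 17.7 TPM in AS and 6.94 TPM in SC (1.24 and 1.36). The autophagy receptor TAX1BP1 was at 53.1 TPM in AS and 22.0 TPM in SC (1.23 and 1.18). HERC2, the ubiquitin ligase that acts on NCOA4, was at 18.7 TPM in AS and 7.48 TPM in SC (1.21 and 0.82).

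None of the 19 measured genes of mitochondrial iron and iron-sulphur cluster assembly and none of the 9 of the cytosolic assembly pathway passed 2-fold in TPM or coverage, with medians in TPM of 0.31 and 0.10. Of all measured genes, 16.5% were 2-fold higher and 2.17% 2-fold lower in TPM, and 15.2% and 2.96% in coverage. In the assembled loci, 2 mitochondrial genes were 2-fold higher and 1 cytosolic gene was 2-fold lower. In the mitochondrial list the chaperone HSPA9 was at 223 TPM in AS and 115 TPM in SC (log2 ratio 0.95), the carrier NFU1 had a log2 ratio of 0.71 and LYRM4, a partner of the cysteine desulphurase, one of 0.63. In the cytosolic list FAM96A stood at 0.56, FAM96B at -0.55 and NUBP1 at 0.35. The first of these, also called CIAO2A, is described as acting on the cluster of IRP1. Of 19 measured genes of haem synthesis, transport and breakdown, 2 were 2-fold higher in TPM and 1 in coverage, against 16.5% and 15.2% of all measured genes. In deposited FPKM and in centred TPM, 0 were 2-fold higher. The median of the list was -0.01 in TPM and -0.13 in coverage. The 2 genes past 2-fold in TPM were PGRMC1, a haem-binding membrane protein, and CPOX, the coproporphyrinogen oxidase. PGRMC1 was at 74.4 TPM in AS and 34.7 TPM in SC (log2 ratio 1.08 in TPM and 0.96 in coverage). CPOX was at 4.98 TPM in AS and 1.95 TPM in SC (1.02 and 1.17). FECH, the ferrochelatase that inserts iron into haem, was at 14.7 TPM in AS and 8.54 TPM in SC (0.72 and 0.65).

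Among other transcripts described to carry an iron-responsive element, none of the 3 measured was past 2-fold in TPM. Of all measured genes, 16.5% were 2-fold higher and 2.17% were 2-fold lower in TPM. CDC42BPA, a kinase with an element described in its 3′ UTR, was at 2.88 TPM in AS and 0.944 TPM in SC (log2 ratio just under 1.00 in TPM and 1.15 in coverage). EPAS1, the hypoxia factor HIF-2-alpha, was at 24.1 TPM in AS and 20.4 TPM in SC (0.23). CDC14A, at 0.136 TPM in AS and 0.0117 TPM in SC, did not pass the filter, and ALAS2, the erythroid enzyme of haem synthesis, was listed at 0 in both libraries.

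**Figure D5:**
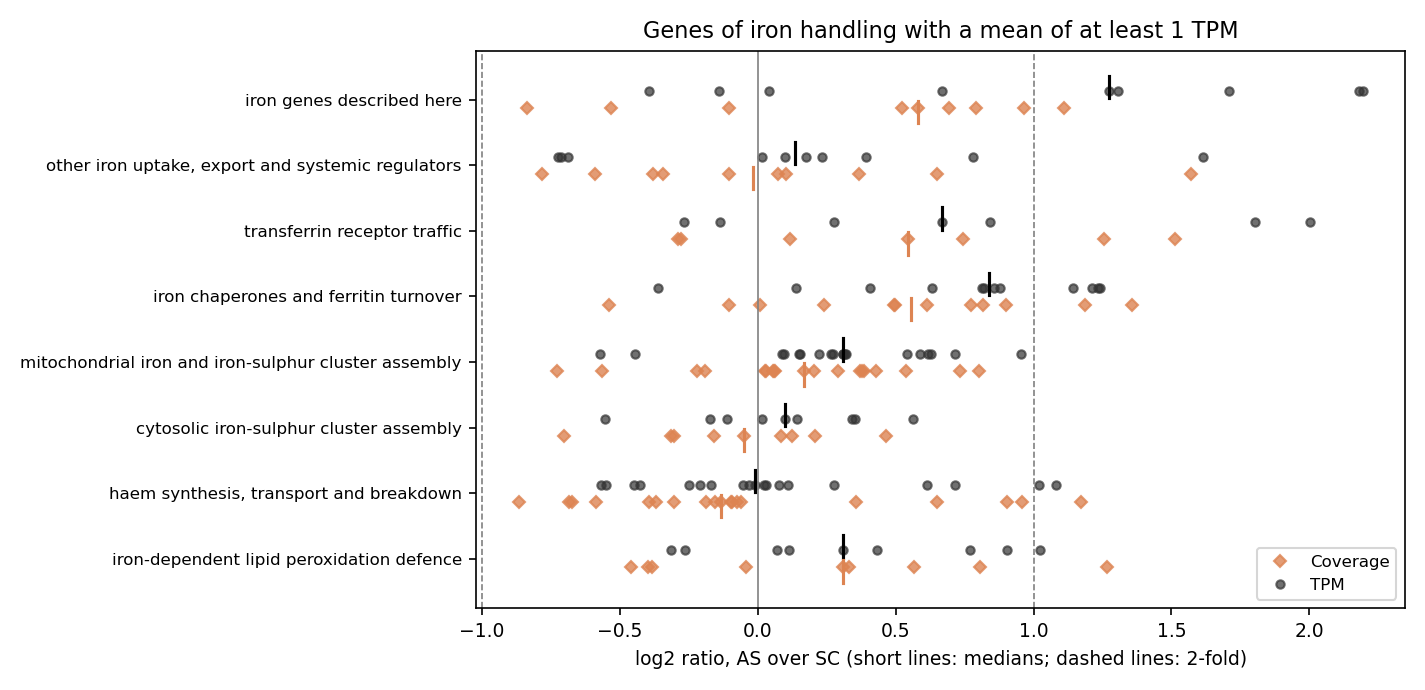
log2 ratio of AS over SC of each measured gene of the iron genes described here and of 7 of the 8 other lists, in deposited TPM (circles) and coverage (diamonds), with medians as short lines and dashed lines at 2-fold. TFRC and NCOA4 lie farthest to the right in TPM, followed by CLTC and PICALM, and the iron-sulphur lists lie within 2-fold.

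The tables hold no read counts, so the counting error of these values and the depth of the libraries are unknown. The coverage per FPKM constants above, 3.54 in AS and 3.62 in SC, were close to each other. More genes reached 1 TPM in AS (14177) than in SC (12816). Of 11 markers of lung adenocarcinoma and epithelium, summed at 883 TPM in AS and 1114 TPM in SC, KRT7, KRT8 and KRT18 were high, at 55.2 to 479 TPM in AS and 67.9 to 558 TPM in SC. Of the other measured markers, EPCAM was at 1.84 TPM in AS and 0.604 TPM in SC (log2 ratio 0.82 in TPM and 1.27 in coverage) and NAPSA at 1.04 TPM in AS and 1.62 TPM in SC. The lineage factor NKX2-1 and the adhesion molecule CDH1 were near 0 in both libraries, and SFTPA1, SFTPC and KRT19 were listed at 0 in both. Of 9 matched markers of other cell types, summed at 226 TPM in AS and 316 TPM in SC, PTPRC and HBB were listed at 0 in both, and CD68, a lysosomal protein also present outside macrophages, made up most of the sum. The collagen genes COL1A1, at 15.8 TPM in AS and 26.3 TPM in SC, and COL3A1, at 7.23 TPM in AS and 4.32 TPM in SC, were also measured. The part of other cell types in the differences was not tested.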

How the data were processed

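The authors deposited 1 table per library with coverage, FPKM and TPM columns, per the file headers, for annotated genes and for loci assembled from reads. The TPM column is treated as a deposited signal, since annotated genes (968917 in AS, 973681 in SC) and assembled loci each have their own sum. Aligner and quantifier: not given in the sources used here. GRCh38 and hg38 are named in the submitters' processing notes, but of 52351 gene identifiers shared with GENCODE 29 (GRCh38) only 322 had the same coordinates, and the positions are those of GRCh37. Gene rows are given as GRCh37 and printed sequences as GRCh38.

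The members and lists were chosen with earlier results of these data known, and members of 2 lists count in each. Log2 ratios used a pseudocount of 1 TPM or 0.1 coverage units, and a gene was measured where its mean reached 1 TPM. Beside the 10 genes, the 3 measured genes with the largest absolute log2 ratio in TPM in each list, and every other transcript described to carry an iron-responsive element, are named, save an item not reported here. FAM96A and FAM96B are the tables' symbols. Of 139 list entries, 138 matched a row. The best assembled locus had the largest overlap over union on the gene's strand. GC content came from the transcript with the longest coding sequence in GENCODE 29 and was had for 98.2% of 10766 measured coding genes. NCOA4 was matched there by symbol. The ratio and the hairpin search were tested on simulated data. Python 3.11.15, pandas 2.3.3, numpy 2.4.6 and matplotlib 3.10.9 were used. Alternatives were other pseudocounts, filters, columns, centring, assembled loci and the highest row of a symbol.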

Additional observations from a re-analysis of the deposited data

How the results depend on the processing

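Each group held 1 library, so no library could be left out. No paired analysis was possible because the result comes from no test and each group had 1 library. The log2 ratio of TFRC stayed above 0 under all 10 alternatives, from 0.90 to 2.32. It was 1.11 in coverage, 0.90 in the assembled locus and 0.91 in coverage centred on the median of all measured genes, a choice made after seeing the data. The number of iron genes at least 2-fold higher, 5 in TPM, was 3 with a pseudocount of 5 TPM, 1 in coverage, 1 in the assembled loci and 0 in centred coverage. The number 2-fold lower, 0 in TPM, was 1 in the assembled loci (FBXL5) and 1 in centred coverage (STEAP3, -1.04). Against the TPM ratio, SLC11A2 (-0.18) and FBXL5 (-1.34) reversed in the assembled loci, where for FBXL5 the loci cover different stretches. Of the other 106 iron genes, 10 higher in TPM became 6 with a pseudocount of 5 TPM, 3 after centring and 5 in centred coverage, and 0 lower became 1 after centring, 2 in the assembled loci and 1 in centred coverage. Of all genes, 2251 higher became 727 with a pseudocount of 5 TPM, 1268 at a mean of at least 5 TPM, 1281 in FPKM, 1253 after centring and 1275 in centred coverage. The 297 lower became 501 with a pseudocount of 0.1 TPM, 70 with one of 5 TPM, 137 at a mean of at least 5 TPM, 696 after centring and 741 in centred coverage. FTL and STEAP3 were below 0 and ACO1, TFRC and NCOA4 above 0 in every alternative. IREB2 was above 0 in every alternative whose filter it passed. The cause of these shifts was not tested.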

Other observations

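Of 9 measured genes of the defence against iron-dependent lipid peroxidation, 1 was at least 2-fold higher in AS and none was 2-fold lower in TPM, against 16.5% and 2.17% of all measured genes. The ratio was above 0 in 7 of the 9 in TPM and in 5 in coverage, with a median log2 ratio of 0.31 in both, against 0.28 and 0.20 for all measured genes. GCH1, the first enzyme of tetrahydrobiopterin synthesis, was at 2.77 TPM in AS and 0.856 TPM in SC (log2 ratio 1.02 in TPM and 1.26 in coverage). ACSL4, which activates polyunsaturated fatty acids, was at 2.76 TPM in AS and 1.01 TPM in SC (0.90 and 0.57). SLC7A11, the cystine importer, was at 5.82 TPM in AS and 3.00 TPM in SC (0.77 and 0.80). Both genes below 0 in TPM are named after their values were seen. These were GPX4, the peroxidase that reduces lipid hydroperoxides, at 840 TPM in AS and 1044 TPM in SC (-0.31 in TPM), and LPCAT3, an acyltransferase of membrane phospholipids, at 34.7 TPM in AS and 41.8 TPM in SC (-0.26).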
